A study of Mus musculus with 26 samples.

Results

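Vis_3 is the third of 3 clusters into which the authors divided thalamic neurons that carried a retrograde label from the visual cortical system. Its members were taken as the cells with that cluster label in the deposited cell table, and they numbered 135 of 1972 cells in all and 135 of 429 clustered visual cells (101 in Vis_1 and 193 in Vis_2). The study sampled 5 such projection systems of the mouse, each named by the cortical area that received the label. Slices were treated with protease while neuronal activity was blocked, thalamic areas were dissected, and fluorescent neurons were picked by hand into plates for 3' sequencing with spike-in RNAs and with molecular barcodes that let copies of 1 transcript be counted once (unique molecular identifiers, UMIs). The visual cells came from 4 male mice, called animals 1 to 4 here, whose age the table gives as 91, 104, 104 and 69 without a unit, and all were in sequencing batch 3. Strain, genotype and the labelling agent are not given in the sources used here, no treatment was compared, and animals 2 and 3 shared a sort date.

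Thalamic projection neurons are glutamatergic cells that carry signals to the cortex. In the visual thalamus they lie in the lateral geniculate nucleus, which relays input from the retina, and in the lateral posterior nucleus, the rodent counterpart of the pulvinar, which receives much of its input from the cortex itself. The genes Tnnt1, Necab1 and Calb2 are known as markers of neighbouring transcriptional profiles of thalamic projection neurons. Tnnt1 encodes a troponin T, Necab1 a neuronal calcium-binding protein and Calb2 the calcium-binding protein calretinin.

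The share of Vis_3 differed widely between animals. It was 8 of 153 clustered visual cells in animal 1 (5.23%, exact 95% binomial interval 2.28 to 10.0%), 27 of 76 in animal 2 (35.5%, 24.9 to 47.3%), 33 of 69 in animal 3 (47.8%, 35.6 to 60.2%) and 67 of 131 in animal 4 (51.1%, 42.3 to 60.0%). Animal 1 thus lay below the intervals of the other 3 animals, whose intervals overlapped. All 4 animals had cells on each of the 10 plates that held visual cells, and Vis_3 cells were found on 5, 9, 10 and 10 of these plates. Animals 1 and 4 were each the only visual animal of their sort date, so animal, date and injection cannot be told apart for either. The identifier of animal 1 is also borne by 73 auditory cells with another sort date.

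**Figure D1:**
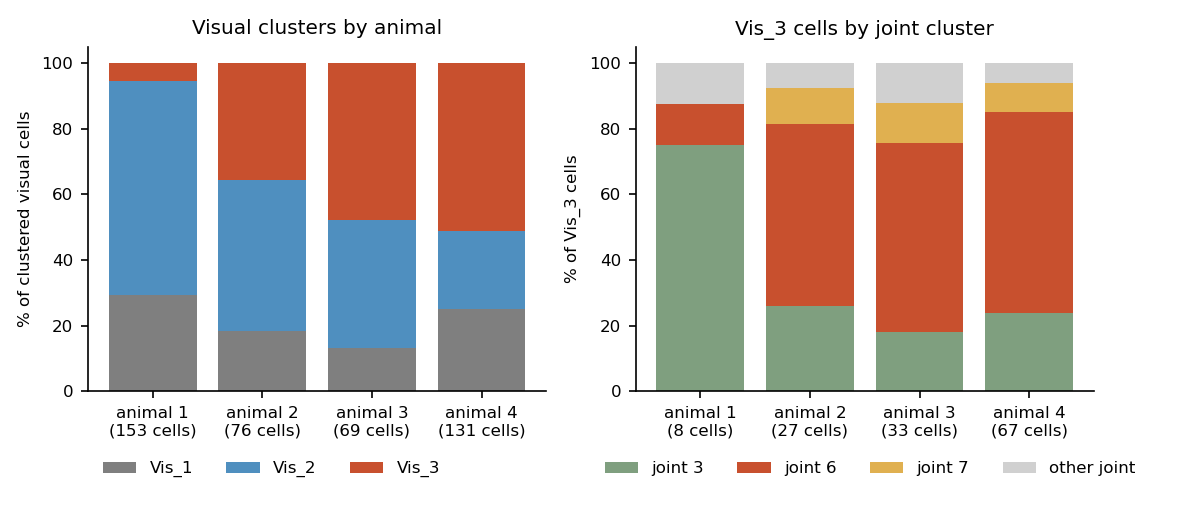
Left, the percentage of clustered visual cells of each animal in Vis_1, Vis_2 and Vis_3; right, the percentage of the Vis_3 cells of each animal in the authors' joint clusters 3, 6, 7 and all others. Vis_3 made up 5.23% of the cells in animal 1 and 35.5 to 51.1% in the other 3, and joint cluster 6 held 12.5% of the Vis_3 cells of animal 1 and 55.6 to 61.2% in the others.

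Cells of this cluster were shallower than those of the other visual clusters. The median was 54458 UMIs per cell (20693 to 134956) in Vis_3, 74185 in Vis_1 and 82459 in Vis_2. With every cell thinned to 20000 UMIs, the median number of genes detected was 3585, 3997 and 4028, and the median share of spike-in UMIs was 10.3%, 7.85% and 7.37%. Within animals, the spike-in share was higher in Vis_3 than in Vis_1 by 3.04 percentage points (2 of 2 animals with at least 10 cells in both clusters, two-sided exact permutation p = 0.5, the smallest that 2 animals allow) and than in Vis_2 by 1.47 points (3 of 3 animals, p = 0.25, the smallest that 3 allow). The difference in genes at fixed depth was -535 from Vis_1 (lower in 2 of 2 animals, exact p = 0.5) and -345 from Vis_2 (3 of 3, exact p = 0.25). The difference in the median UMI count was -20059 from Vis_1 (lower in 2 of 2, exact p = 0.5) and -13035 from Vis_2 (2 of 3, exact p = 0.5). All 6 values were 0.5 after Benjamini-Hochberg adjustment, and none of these designs can reach 0.05. With animals of at least 5 cells in both clusters, all 4 animals had the higher spike-in share and the fewer genes in Vis_3 against either cluster (exact p = 0.125 each, the smallest that 4 animals allow). Their part in the differences between genes below was not tested beyond a fit on thinned cells.

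UMI counts were summed per animal and cluster and are given in CPM, the count of a gene scaled to a common total per sum. Sums of at least 10 cells entered means (± SD over animals) and fits: animals 2 to 4 for Vis_3, animals 1, 2 and 4 for Vis_1, and all 4 for Vis_2. The 8-cell sum of Vis_3 in animal 1 and the 9-cell sum of Vis_1 in animal 3 are printed among the values by animal but enter no mean. Folds are log2 folds with their standard error from an edgeR quasi-likelihood fit with the animal as block. The clusters rest on the expression of these same genes, so differences between clusters are described without p-values. A gene is counted as higher or lower when its fitted fold is at least 2 and it moves the same way in every animal with both sums, with direction read from levels scaled by the fit's normalization factors. A level in a sum does not tell more cells with a transcript from more transcripts per cell.

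Of 12147 genes, 1496 (12.3%) were counted as higher and 1006 (8.28%) as lower in Vis_3 than in Vis_1, 20.6% in all, on 2 paired animals. Against Vis_2, on 3 paired animals, 679 (5.59%) were higher and 617 (5.08%) lower, 10.7% in all. Against the mean of both, 1105 (9.1%) were higher and 898 (7.39%) lower, 16.5% in all. Higher than each of the other clusters were 430 genes and lower than each were 329. With sums of at least 5 cells, so that all 4 animals had to show the direction, 159 genes were higher than both and 195 lower than both. Of the 11409 genes tested on those sums, 4.94% were higher and 5.04% lower than in Vis_1 (9.98% in all), 2.47% and 4.15% against Vis_2 (6.63%), and 3.64% and 4.46% against the mean of both (8.1%). The group counts below should be read against these percentages, and the members of each group were picked with earlier results of these data in view.

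Vis_3 cells had the markers of thalamic projection neurons. All 23 listed thalamic identity genes were detected, at a summed level of 6774 to 7158 CPM over the 3 sums, below the 10196 to 10526 CPM in Vis_1 and the 8511 to 9961 CPM in Vis_2. Slc17a6, the vesicular glutamate transporter of thalamic neurons, had 777, 611, 701 and 612 CPM in Vis_3 of animals 1 to 4 and UMIs in 98.5% of the cells, and its fold was -0.17 ± 0.14 against Vis_1 and -0.04 ± 0.12 against Vis_2. Ntng1, a netrin-like adhesion protein of thalamic axons, had similar means in the 3 clusters, 1167 ± 38.7 CPM in Vis_3, 1232 ± 14.2 in Vis_1 and 1254 ± 153 in Vis_2. Against the mean of both clusters, 1 of the 23 identity genes was higher (Gbx2) and 4 were lower (Prkcd, Sox5, Plekhg1 and Rorb), with a median log2 fold of -0.32, against 0.03 over all genes.

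Markers of other cells stayed low or were shared with the other clusters. The 12 astrocyte markers summed to 208 to 238 CPM in Vis_3, 94.3 to 121 in Vis_1 and 224 to 321 in Vis_2, nearly all of it Slc1a2, a glutamate transporter, while Aqp4, Gfap and Aldh1l1 were at 0 in Vis_3. The 10 oligodendrocyte markers summed to 31.5 to 36.7 CPM, against 14.1 to 42.0 and 17.6 to 62.7, with Mog, Cldn11 and Ermn at 0. The 10 microglial markers summed to 152 to 190.2 CPM, against 99.5 to 159 and 125 to 181, and C1qb made up most of them while Cx3cr1, C1qa, P2ry12 and Tmem119 were at 0. The 8 endothelial and mural markers summed to 0.99 to 1.92 CPM, the 7 habenular markers to 5.92 to 11.2 CPM and the 7 cortical markers to 25.1 to 34.2 CPM. Of the Vis_3 cells, 1 carried 3 or more markers of 1 non-neuronal type. Of the GABA neuron markers, Gad1 and Slc32a1 were at 0 in Vis_3, and the others are not described here.

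The calcium-binding anchor genes Calb2 and Necab1 were higher and Tnnt1 lower in Vis_3. Calb2 had 526.2, 1133, 1187 and 764 CPM in Vis_3 of animals 1 to 4, 249, 251, 236 and 97.1 in Vis_2 and 23.7, 116, 0 and 9.15 in Vis_1. The Vis_3 sums did not overlap those of the other clusters, and the log2 fold was 4.79 ± 0.50 against Vis_1 and 2.40 ± 0.41 against Vis_2. Necab1 had 531, 431, 517 and 484 CPM in Vis_3, 209, 181, 208 and 324 in Vis_2 and 43.6, 121, 88.2 and 56.0 in Vis_1. Its groups were apart as well, with a fold of 2.61 ± 0.34 against Vis_1 and, just short of the size that is counted, 0.93 ± 0.29 against Vis_2. Tnnt1 had 359, 125, 147 and 136 CPM in Vis_3, 222, 143, 246 and 342 in Vis_2 and 956, 896, 915 and 1078 in Vis_1. It was thus far below Vis_1 (-2.94 ± 0.22) and overlapped Vis_2 (-0.78 ± 0.19). Calling each cell by whichever of the 3 genes had the highest CPM, 77 Vis_3 cells were of the Calb2 class (57.0%, 48.2 to 65.5%), 36 of the Necab1 class (26.7%), 18 of the Tnnt1 class (13.3%) and 4 of none. In Vis_1 the Tnnt1 class held 92.1% of the cells, and in Vis_2 the Tnnt1, Necab1 and Calb2 classes held 34.2, 30.6 and 32.1%.

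Prkcd, a protein kinase C that is abundant in first-order relay nuclei, was the identity gene with the lowest fold against Vis_1. It had 1858, 528, 673 and 786 CPM in Vis_3 of animals 1 to 4, 2035, 1682, 1894 and 1509.6 in Vis_2 and 2426, 2703, 2643 and 2802 in Vis_1. Animals 2 to 4 lay below every sum of the other clusters, while the 8 cells of animal 1 lay among the Vis_2 values. The folds were -2.05 ± 0.15 and -1.42 ± 0.14. Rorb, a nuclear receptor of sensory relay neurons, had 2.39, 117, 47.9 and 77.2 CPM in Vis_3 against 180.2, 169.6, 258 and 189.9 in Vis_2 and 165, 139, 15.3 and 127 in Vis_1, and only its fold against Vis_2 (-1.32 ± 0.30) was of the counted size. Gbx2, a homeobox factor of thalamic development, went the other way with 64.6, 173, 133 and 119 CPM in Vis_3, a Vis_2 range of 13.7 to 50.4 and a Vis_1 range of 13.5 to 49.7, which did not overlap (2.02 ± 0.49 and 2.14 ± 0.44).

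**Figure D2:**
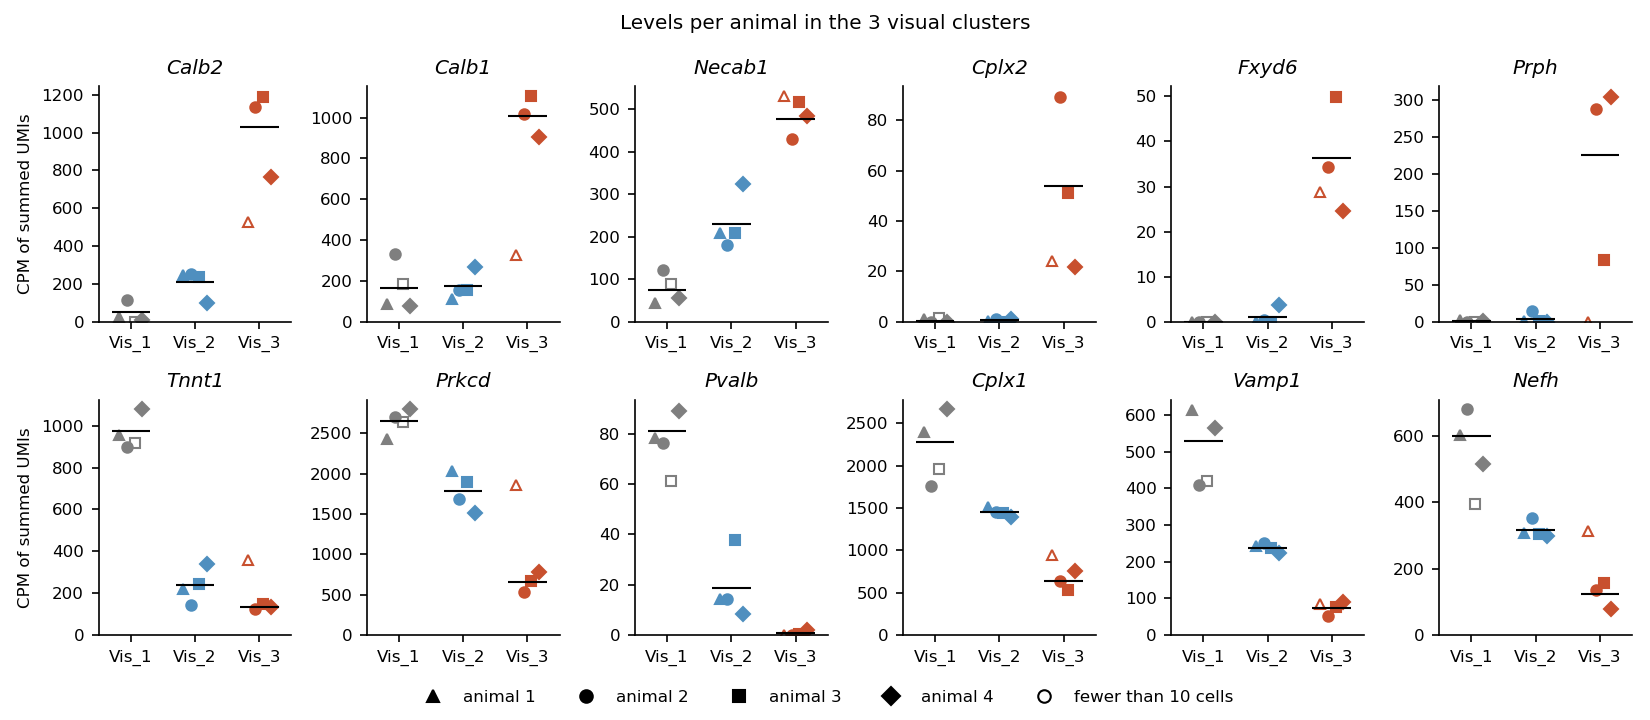
CPM of summed UMIs of 12 genes (linear axes from 0) in Vis_1, Vis_2 and Vis_3; each symbol is 1 animal, open symbols are sums of fewer than 10 cells, and lines are means over sums of at least 10 cells. Calb2, Necab1, Cplx2 and Fxyd6 lie above the other clusters in all 4 animals and Cplx1, Vamp1 and Pvalb below, while Prph is at 0 in animal 1.

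Among 17 calcium buffers and sensors tested, 7 were higher and 3 lower than the mean of Vis_1 and Vis_2 (median log2 fold 0.06, against 0.03 over all genes). Calb1, the buffer calbindin, had 328, 1017, 1103 and 907 CPM in Vis_3 of animals 1 to 4, and its highest sum elsewhere was 333 CPM, in Vis_1 of animal 2. Animals 2 to 4 were above all other sums and animal 1 at that level, with folds of 2.51 ± 0.44 and 2.33 ± 0.38. Parvalbumin (Pvalb), the buffer of many fast-spiking neurons, had 0, 0, 0.493 and 1.92 CPM in Vis_3, 14.5, 14.3, 37.7 and 8.49 in Vis_2 and 78.5, 76.3, 61.4 and 89.2 in Vis_1. It was thus near 0 in every Vis_3 sum (-6.67 ± 0.78 and -4.12 ± 0.75). Pcp4, a calmodulin-binding peptide, was lower in all 4 animals, with means of 1394 ± 194 CPM in Vis_3, 3417 ± 210.4 in Vis_2 and 5137 ± 296 in Vis_1. Neurogranin (Nrgn), which binds calmodulin in dendrites, had 0, 94.1, 54.3 and 35.3 CPM in Vis_3 and a mean of 4.70 ± 7.81 in Vis_1 and 0.557 ± 0.706 in Vis_2, and it was absent from the 8 cells of animal 1. S100b and Hpcal4, 2 further calcium-binding proteins, were higher against both clusters, and Ncald and Necab1 reached the counted size against Vis_1 but not against Vis_2. With sums of at least 5 cells, 5 of 17 were higher and 3 lower than the mean of both clusters. Hpcal4 and Nrgn were then not counted against either cluster, and Necab1 was counted as higher than Vis_2.

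Genes that support fast and sustained firing were lower as a group. Of 15 tested, 11 were lower and 1 higher than in Vis_1 (median log2 fold -1.56), and 8 were lower and 1 higher than in Vis_2 (median -1.08, where the median over all genes was 0.00). Kcna1, a low-threshold potassium channel of axons, had 74.1, 14.1, 31.1 and 32.8 CPM in Vis_3 of animals 1 to 4, 90.6, 64.9, 108 and 35.5 in Vis_2 and 245, 369, 144 and 287 in Vis_1. Scn4b, the sodium channel subunit linked to resurgent current, had 0, 3.06, 0.987 and 0 CPM in Vis_3, 27.3, 25.8, 19.6 and 53.0 in Vis_2 and 75.0, 67.7, 20.5 and 80.8 in Vis_1. Within each animal Vis_3 was the lowest of the 3 clusters for both genes, with folds against Vis_1 of -3.69 ± 0.42 and -5.96 ± 0.87 and against Vis_2 of -1.45 ± 0.38 and -4.78 ± 0.82. The neurofilament genes of large-calibre axons split. Nefh had 313, 134, 155 and 79.6 CPM in Vis_3 against 309, 352, 303 and 297 in Vis_2, with a fold of -1.42 ± 0.17, and Nefm had a fold of -1.16 ± 0.11. The light subunit Nefl was not lower than in Vis_2 (0.25 ± 0.12), with a mean of 656 ± 20.3 CPM against 569 ± 92.4.

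The median fold of the fast-firing group stayed below 0 where depth and cell make-up were changed, and fewer genes were counted against Vis_2 with thinned cells or with all 4 animals. The Kv3 channel gene Kcnc1 had a fold against Vis_1 of -1.56 ± 0.17, whereas Kcnc4, a Kv3 gene with a fast-inactivating channel, was higher at 11.96, 46.5, 27.6 and 15.3 CPM in animals 1 to 4 (mean 0.195 ± 0.338 in Vis_1 and 4.13 ± 5.31 in Vis_2). With cells thinned to 20000 UMIs, 11 of the 15 were lower than Vis_1 and 6 lower than Vis_2 (medians -1.41 and -0.90), and Kcnc4 was no longer counted as higher than Vis_2. With sums of at least 5 cells, so with all 4 animals, 10 were lower than Vis_1 and 5 lower than Vis_2 (medians -1.48 and -0.93, where 5.04% and 4.15% of all genes were lower). Nefh is among these 5 through its scaled level, while its CPM in animal 1 was about equal in Vis_3 and Vis_2. Without cells that carried glial or vascular markers, 11 and 8 were lower, and with only the Vis_3 cells of the authors' joint cluster 6, described below, 12 and 11.

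**Figure D3:**
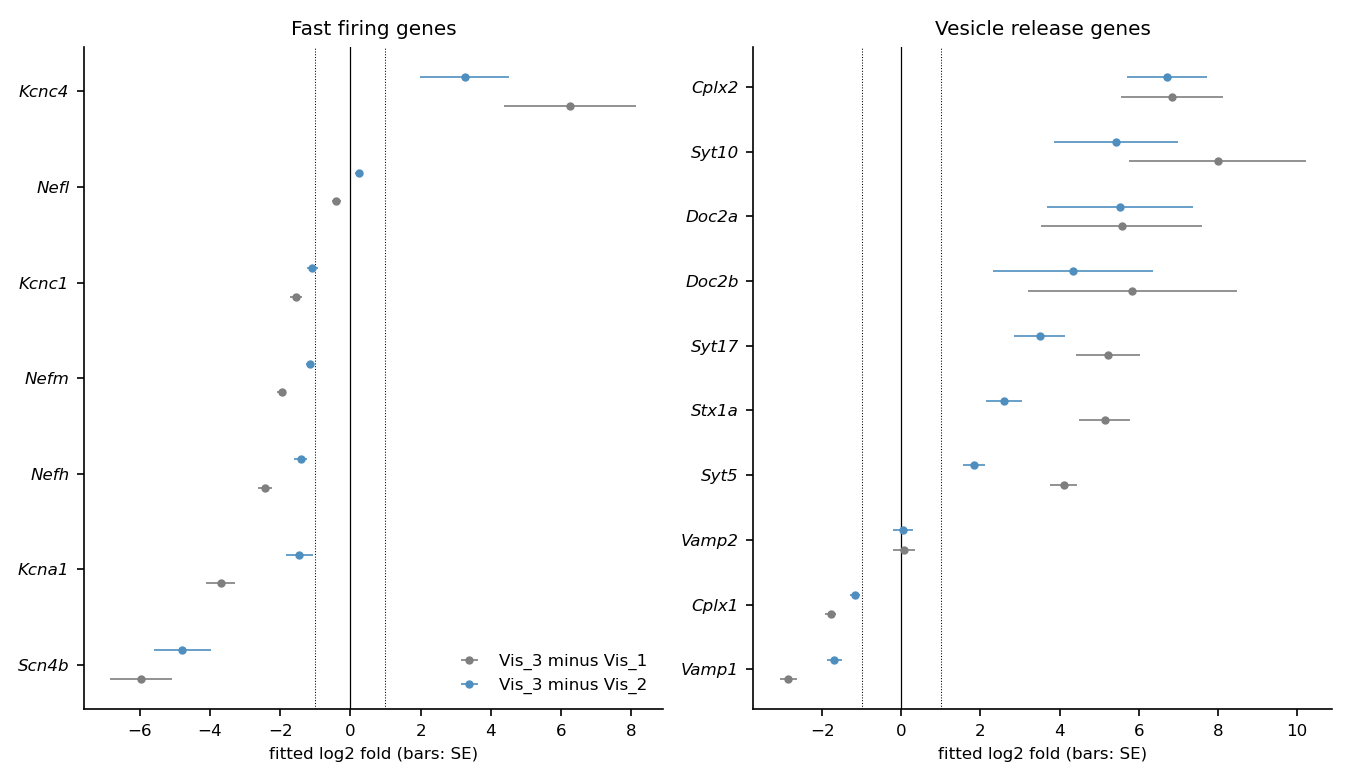
Fitted log2 fold (x axis, bars are SE) of Vis_3 minus Vis_1 and minus Vis_2 for the fast firing genes (left) and vesicle release genes (right) that the text describes, which are a part of the 15 and 29 tested; dotted lines mark a fold of 2. Kcna1, Kcnc1, Scn4b, Nefh and Nefm lie left of 0 for both clusters and Kcnc4 right of it, and Cplx1 and Vamp1 lie opposite to Cplx2, Syt5, Syt17 and Stx1a.

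Some transmitter release genes differed from their paralogues, and the median fold of the group was near 0. Of 29 tested, 8 were higher and 2 lower than in Vis_1 (median -0.01), where 12.3% and 8.28% of all genes were. Against Vis_2, 8 were higher and 3 lower (median 0.01), where 5.59% and 5.08% of all genes were. The share counted as higher was thus above that over all genes in both comparisons. With sums of at least 5 cells, 4 of 27 were higher and 2 lower against either cluster. On those sums, 4.94% of all genes were higher and 5.04% lower than in Vis_1, and 2.47% and 4.15% against Vis_2. Complexins clamp and promote vesicle fusion. Cplx1 had 947, 635, 533 and 754 CPM in Vis_3 of animals 1 to 4, 1517, 1447, 1445 and 1388 in Vis_2 and 2398, 1763, 1963 and 2673 in Vis_1. Its paralogue Cplx2 had 23.9, 89.2, 51.3 and 21.6 CPM in Vis_3, 0.326, 0.932, 0 and 1.06 in Vis_2 and 1.17, 0, 1.28 and 0 in Vis_1. The sums of Vis_3 stood apart from both other clusters in opposite directions, with folds against Vis_2 of -1.16 ± 0.12 for Cplx1 and 6.72 ± 1.02 for Cplx2. UMIs of Cplx2 were found in 31.9% of Vis_3 cells, 3.11% of Vis_2 cells and 4.95% of Vis_1 cells.

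Vamp1, a vesicle SNARE of fast synapses, was lower with 83.7, 52.6, 76.0 and 89.2 CPM in Vis_3, 244, 250.3, 238 and 223 in Vis_2 and 615, 410.4, 419 and 565 in Vis_1, and the 3 clusters did not overlap (-2.86 ± 0.22 and -1.70 ± 0.19). Its paralogue Vamp2 had a fold of 0.07 ± 0.29 and 0.03 ± 0.25. Syt5, a synaptotagmin of secretory vesicles, had 179, 200.5, 236 and 221 CPM in Vis_3, 36.2, 50.3, 92.4 and 44.0 in Vis_2 and 6.15, 7.71, 2.56 and 14.9 in Vis_1, again without overlap (4.10 ± 0.35 and 1.84 ± 0.28). Syt17, Stx1a and Cplx2 were the other release genes higher than both clusters in all 4 animals. Syt17, a synaptotagmin-like protein, had 76.5, 86.2, 60.7 and 52.5 CPM and Stx1a, a plasma-membrane SNARE, 43.1, 80.7, 109 and 122 CPM in Vis_3, where no other sum exceeded 13.3 and 31.3 CPM. Syt10, Doc2a and Doc2b, calcium sensors of regulated secretion, were at 0 in the 8 cells of animal 1 and had means of 31.2 ± 9.32, 8.79 ± 2.10 and 7.31 ± 2.64 CPM in the other 3 animals.

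Receptor genes moved by subunit. Against the mean of both clusters, 9.1% of all genes were higher and 7.39% lower. The shares were 3.64% and 4.46% on sums of at least 5 cells. Of 6 NMDA receptor subunits, Grin3a, which lowers calcium permeability, was higher with 117, 172, 117 and 156 CPM in Vis_3 of animals 1 to 4, 19.1, 45.3, 28.1 and 40.3 in Vis_2 and 1.17, 7.71, 3.84 and 13.0 in Vis_1. No sum overlapped (4.25 ± 0.45 and 1.83 ± 0.37). Grin2c was lower at the counted size against Vis_1 (-1.55 ± 0.40) and Vis_2 (-1.001 ± 0.36), although its 8-cell sum in animal 1, 95.7 CPM, lay above the 55.0 CPM of Vis_2 there. Of 14 AMPA receptor genes, Shisa6 and Gria3 were lower than in both clusters, and Shisa7 was higher than their mean. Gria3 averaged 95.5 ± 6.61 CPM against 229.7 ± 45.6 and 251 ± 47.0. On sums of at least 5 cells, Gria3 was no longer counted as lower than in Vis_2. Of 12 kainate, delta and metabotropic glutamate receptor genes, 5 were higher and 2 lower than the mean of both clusters, but 1 and 1 with sums of at least 5 cells and 2 and 2 without animal 2. Of 14 GABA receptor subunits, 4 were higher (Gabrg1, Gabra5, Gabra2 and Gabra3) and 1 lower (Gabrd, of extrasynaptic receptors), against 1 and 1 with sums of at least 5 cells. Gabrg1 had 0 UMIs in Vis_1 and 0, 50.7, 31.1 and 34.5 CPM in Vis_3, at least 89.3-fold higher than the limit that 0 allows over the Vis_1 sums (3 UMIs). Gabra2 averaged 146 ± 22.4 CPM in Vis_3, 78.9 ± 15.5 in Vis_2 and 17.1 ± 4.45 in Vis_1.

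Of 50 receptors for modulators, 17 passed the filter on low counts, and 3 of these were higher and 4 lower than the mean of both clusters (1 and 3 of 14 with sums of at least 5 cells). Over all genes, the shares higher and lower were 9.1% and 7.39% (3.64% and 4.46% on sums of at least 5 cells). Htr2c, a serotonin receptor, was higher in all 4 animals with 93.3, 91.1, 114 and 69.0 CPM in Vis_3, 4.13, 17.1, 25.1 and 51.5 in Vis_2 and 6.44, 11.996, 26.8 and 8.77 in Vis_1 (2.61 ± 0.66 and 1.81 ± 0.52). Adra1b, an adrenergic receptor, averaged 32.5 ± 15.9 CPM, lower than the 103 ± 16.95 CPM of Vis_1 (-1.60 ± 0.37), and Vipr2, a receptor of vasoactive intestinal peptide, had a fold of -1.40 ± 0.40 there. Of 18 neuropeptide genes, 9 passed the filter, and 4 of these were higher and 1 lower than the mean of both clusters (2 and 1 of 9 with sums of at least 5 cells). Secretogranin II (Scg2), a dense-core vesicle protein, had 1005, 833, 1111 and 1179.6 CPM in Vis_3, 372, 302, 360.0 and 683 in Vis_2 and 478, 586, 528 and 464 in Vis_1, higher in all 4 animals and at the counted size against Vis_2 (1.27 ± 0.22). Pnoc, the nociceptin precursor, was lower at 4.78, 20.8, 35.0 and 16.7 CPM against 63.9, 76.1, 82.3 and 62.1 in Vis_2 (-1.72 ± 0.39). Of 16 immediate early genes, 4 were higher and 0 lower than the mean of both clusters (Fosb, Btg2, Fos and Npas4), and with sums of at least 5 cells 0 of 14 were counted in either direction.

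Most counted genes among channels of the subthreshold range rested on the 3 larger sums. Over all genes, 9.1% were higher and 7.39% lower than the mean of both clusters. The shares were 3.64% and 4.46% on sums of at least 5 cells. Of 10 A-type channel genes, Kcnip1, a Kv4 channel-interacting protein, and Kcnip2 were higher and Kcnd1 lower than the mean of both clusters. The direction of Kcnip2 rested on animal 2, without which its log2 fold was -0.0366. Kcnip1 had the largest fold against that mean of all named genes, at 0, 122, 72.0 and 19.2 CPM in Vis_3 of animals 1 to 4. It was thus at 0 in animal 1, and 12.6% of Vis_3 cells carried a UMI, against 3.11% in Vis_2 and 0.990% in Vis_1. Its ratio to Vis_1, where 1 UMI was found, was 409 (95% counting interval 72.9 to 16181). Of 6 burst channel genes, Cacna1i, a low-threshold calcium channel, and Hcn3 were higher against both clusters in the 3 larger sums and at 0 in animal 1. Pex5l, which encodes the HCN channel partner TRIP8b, was lower in the 3 larger sums, with a mean of 12.2 ± 1.11 CPM against 31.5 ± 6.05 in Vis_2 and 40.5 ± 16.04 in Vis_1, and stood at 31.1 CPM in animal 1, about level with the 30.3 CPM of Vis_2 there. Of 12 leak, M-type and SK channel genes, 1 was higher, Kcnk10, whose fold without animal 2 was -0.44. With sums of at least 5 cells, 0 of 8 A-type and 0 of 12 leak, M-type and SK genes were counted, and 1 of 5 burst genes was (Pex5l, lower).

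Adhesion and guidance genes moved both ways. Over all genes, 9.1% were higher and 7.39% lower than the mean of both clusters. The shares were 3.64% and 4.46% on sums of at least 5 cells. Of 31 axon guidance genes tested, 6 were higher and 3 lower than the mean of both clusters. That count moved to 10 and 6 of 33 without animal 2 and to 2 and 3 of 29 with sums of at least 5 cells. Sema5a, a transmembrane semaphorin, was lower with 9.57, 4.89, 11.3 and 24.9 CPM in Vis_3 of animals 1 to 4, 92.2, 73.3, 80.3 and 64.7 in Vis_2 and 165, 111, 95.9 and 158 in Vis_1 (-3.35 ± 0.43 and -2.496 ± 0.40). The clusters did not overlap, and among the authors' 17 clusters Vis_3 had the lowest Sema5a level. Robo2, a receptor of Slit proteins, was higher against Vis_1 in all 4 animals (3.11 ± 0.72). Of 20 cadherins and protocadherins, 7 were higher and 2 lower, against 2 and 0 of 18 with sums of at least 5 cells and 4 and 1 of 15 with thinned cells. Pcdh11x had 21.5, 47.1, 62.7 and 47.9 CPM in Vis_3, 14.0, 3.73, 29.1 and 15.9 in Vis_2 and 0.293, 0, 1.28 and 0.763 in Vis_1, higher than both other clusters within every animal, though the 21.5 CPM of animal 1 lay within the Vis_2 range. Cdh22 had 0 UMIs in Vis_1 and 0, 25.1, 32.1 and 11.8 CPM in Vis_3, at least 48.9-fold higher than the 3-UMI limit. Of 22 synapse organizers, 3 were higher than the mean of both clusters (Cbln2, Nptxr and Lrrtm3) and 1 lower (Slitrk1). On sums of at least 5 cells, 1 of 21 was higher (Lrrtm3) and 0 were lower. Cbln2, a cerebellin that bridges neurexins to postsynaptic receptors, was higher in the 3 larger sums (mean 73.5 ± 9.29 CPM, 17.5 ± 8.59 in Vis_2) and had 2.39 CPM in animal 1. Of 21 teneurins, contactins and partners, Cntnap5a was higher and 0 were lower.

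The genes with the largest folds fell into those shared by all 4 animals and those found in animals 2 to 4. Fxyd6, a regulator of the sodium pump, had 28.7, 34.2, 49.8 and 24.6 CPM in Vis_3 of animals 1 to 4, 0, 0.311, 0 and 3.71 in Vis_2 and 0 UMIs in all Vis_1 sums. It was higher in all 4 animals, at least 81.1-fold above the 3-UMI limit of Vis_1 and with a log2 fold of 5.38 ± 1.32 against Vis_2. Mpp3, a membrane scaffold protein, had 64.6, 33.0, 26.6 and 43.0 CPM in Vis_3, 10.3, 17.4, 9.54 and 11.1 in Vis_2 and 0.293, 0, 0 and 0 in Vis_1, again higher in all 4. In contrast, Ccnd2, a cyclin, had 0, 44.6, 13.8 and 32.3 CPM in Vis_3, and Syt10, Caln1, Rxfp1 (the relaxin receptor), Ldb2, Ryr2 (a calcium release channel), Alcam and Ptprt shared its absence from the 8 cells of animal 1. The sum of animal 1 held 418107 UMIs, so that 0 UMIs allow a level of up to 7.18 CPM there, counting error only. That limit does not cover the draw of only 8 cells, which can miss a transcript held by few cells. Pgam2, a muscle-type glycolytic enzyme, had 2.39, 81.9, 96.2 and 62.4 CPM in Vis_3 against 7.50, 36.0, 1.51 and 0 in Vis_2, so that animal 2 had Pgam2 in Vis_2 as well.

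On the lower side, leading genes differed in the 8 cells of animal 1. Ap5m1, Plcd4 and Bicc1 had 59.8, 38.3 and 21.5 CPM there, above the 9.90, 11.4 and 10.4 CPM of Vis_2 in that animal. Eps8l2, an actin-regulating protein, had 0, 0.611, 1.48 and 1.37 CPM in Vis_3 of animals 1 to 4, 14.8, 18.0, 3.51 and 44.0 in Vis_2 and 183, 169.7, 149.6 and 238 in Vis_1. Lamb1, a laminin chain, had 0, 0, 0 and 0.547 CPM in Vis_3, 8.37, 19.3, 23.1 and 5.83 in Vis_2 and 22.5, 26.6, 29.4 and 32.0 in Vis_1. Both had their highest mean in Vis_1 and were close to 0 in Vis_3, with folds against Vis_2 of -3.96 ± 0.62 and -5.59 ± 1.07. Fstl1, a secreted follistatin-like protein, had 14.4, 1.22, 3.95 and 8.48 CPM in Vis_3, 102, 42.2, 69.3 and 61.5 in Vis_2 and 133, 128, 134 and 127 in Vis_1 (-3.70 ± 0.46 against Vis_2). Its sums did not overlap and its level was the lowest of the 17 clusters. Rab37, a secretory GTPase, averaged 24.3 ± 6.41 CPM against 182 ± 48.3 and 238 ± 13.9, and Plxdc1 averaged 13.0 ± 3.43 against 94.1 ± 13.9 and 118 ± 17.9. In animal 1 these genes stood at 55.0 and 38.3 CPM, higher than in the other Vis_3 sums and below the 208 and 102 CPM of its Vis_2 sum. Car4, a membrane carbonic anhydrase, had 40.7, 9.78, 1.48 and 0.821 CPM in Vis_3, of which animal 1 was the highest and lay just below the 47.5 CPM of its own Vis_2 sum.

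Across the authors' 17 clusters, few of these genes were at their highest in Vis_3. Those named by size that peaked there were Cdh15, Pgam2, Ptprt, Prph and Tcerg1l. Tcerg1l, a transcription elongation regulator-like gene, had 11.96, 139, 76.0 and 66.8 CPM in Vis_3 of animals 1 to 4, 0.653, 0.932, 4.02 and 1.59 in Vis_2 and 12.9, 1.71, 15.3 and 6.10 in Vis_1. Animal 1 lay within the Vis_1 range and the other 3 animals above it. Calb2 had rank 5 of 17, at 1028 ± 231 CPM, and highest in Aud_3 at 1928 CPM, and Cplx2, Nrgn and Kcnip1 were likewise highest in Aud_3. Over the mean log2 levels of 11229 genes, a description over genes that are not independent, Vis_3 had its highest Pearson correlation with Vis_2 (0.927), followed by Aud_2 (0.920), Mot_4 (0.917) and Pfr_2 (0.916), while that with Vis_1 was 0.875. These clusters differ in depth and batch, and these differences between neighbouring correlations were not tested.

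**Figure D4:**
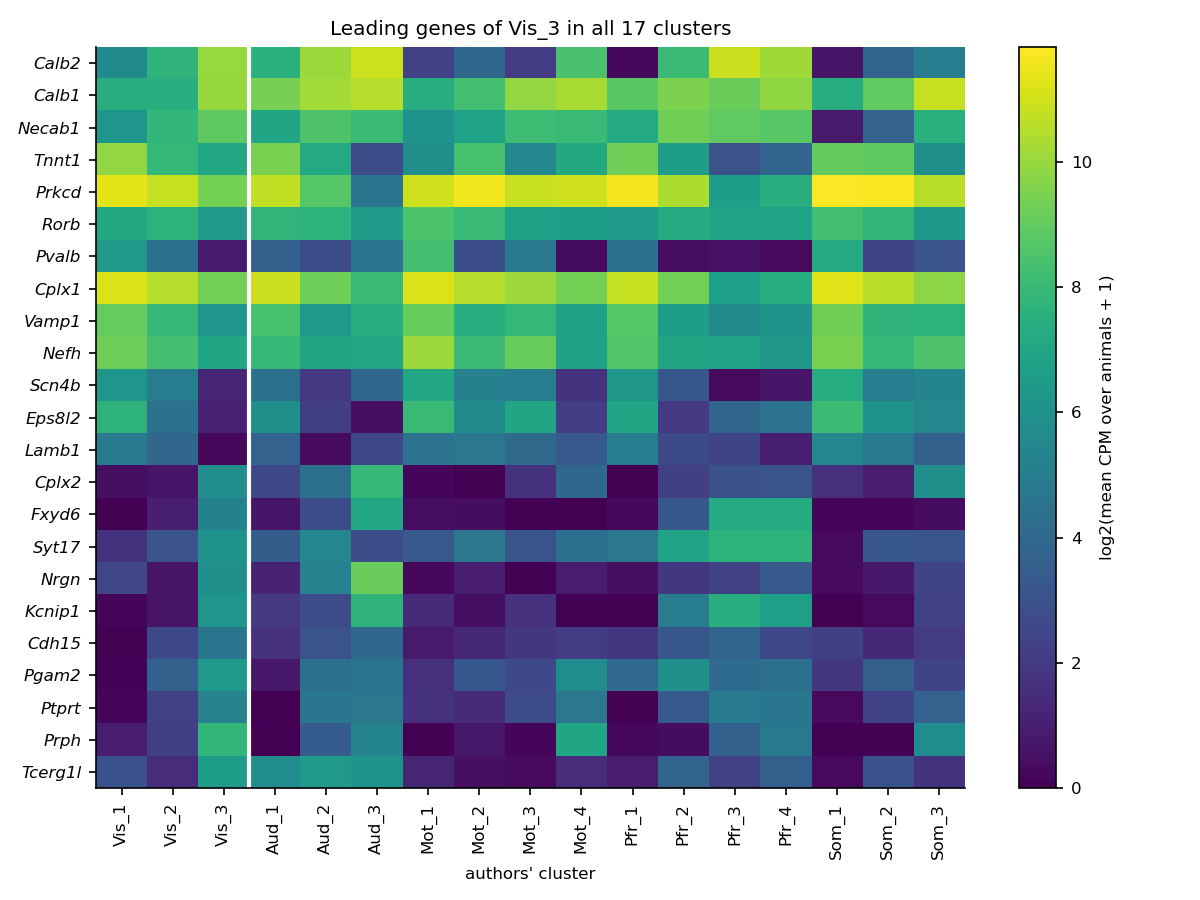
Mean level over animals, as log2(mean CPM + 1), of 23 genes (vertical) in the authors' 17 clusters (horizontal), visual clusters first. Vis_3 shares low Pvalb and Scn4b and high Calb2 with several clusters of other systems, and Prph is at its highest in Vis_3 with Mot_4 next.

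The authors also clustered all systems together, and Vis_3 was the visual cluster that this joint clustering divided. Of its 135 cells, 76 were in joint cluster 6 (56.3%), 35 in joint cluster 3 (25.9%), 13 in joint cluster 7 (9.63%) and the others in joint clusters 2, 5 and 8. Joint cluster 3 held 96 of the 101 Vis_1 cells and 182 of the 193 Vis_2 cells. Joint cluster 6 had 111 cells in all, of which 68.5% were Vis_3, and its next largest contributor was Mot_4 with 14 cells. In animals 1 to 4, joint cluster 6 held 12.5, 55.6, 57.6 and 61.2% of the Vis_3 cells and joint cluster 3 held 75.0, 25.9, 18.2 and 23.9%. The 8 cells of animal 1 thus stood apart, with 6 of them in joint cluster 3 and 1 in joint cluster 6.

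Within Vis_3, joint clusters 6 and 3 were set against each other in animals 2 to 4. Both groups had similar depth (medians of 57744.5 and 57092 UMIs), and their spike-in shares were 9.59 and 12.9%. Of 8945 genes, 1251 (14.0%) were higher and 826 (9.23%) lower in joint cluster 6 by the same rule of size and direction, with sums of as few as 5 cells. Calb2 had 1562, 1435 and 1052 CPM in joint cluster 6 of animals 2 to 4 and 356, 421, 831 and 375 in joint cluster 3 of animals 1 to 4 (log2 fold 1.47 ± 0.23). Calb1 had 1445, 1396 and 1175 CPM and 319, 454, 689.5 and 511 CPM (1.38 ± 0.20). Both calcium buffers were higher in joint cluster 6 without overlap, and the joint cluster 3 cells of Vis_3 had more of both in each animal than any Vis_2 sum.

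Tnnt1 had 32.0, 102 and 65.5 CPM in joint cluster 6 and 322, 318, 203 and 299.8 CPM in joint cluster 3 (-2.06 ± 0.46). Prkcd had 259, 589 and 526.4 and 2273, 1234, 1349.5 and 1756 CPM (-1.64 ± 0.21), and Pcp4 had 809.7, 1179 and 1003 and 2621, 3273, 1986 and 2448 CPM (-1.27 ± 0.22). All 3 were lower in joint cluster 6 in every paired animal and did not overlap. Necab1 was below the counted size (-0.57 ± 0.22), and so were Cplx1 (-0.13 ± 0.27), Cplx2 (1.05 ± 1.08), Kcna1 (-0.10 ± 1.11) and Grin3a (0.88 ± 0.41). Of the joint cluster 6 cells, 80.3% were of the Calb2 class, against 28.6% in joint cluster 3, where 40.0% were of the Necab1 and 31.4% of the Tnnt1 class. The 13 cells of joint cluster 7 had, pooled, 410 CPM of Rorb, 739 CPM of Necab1 and 160 CPM of Calb2, and 10 of them were of the Necab1 class.

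Prph, which encodes the intermediate filament peripherin, was found in joint cluster 6 alone among these 2 groups. It had 486, 95.1 and 488 CPM there in animals 2 to 4 and 0 UMIs in joint cluster 3. UMIs were in 27 of the 76 cells (35.5%), from 3 animals and 8 plates and up to 309 UMIs in a cell, and in 0 of 35 cells of joint cluster 3, which allows a share of cells with a UMI, not of cells expressing the gene, of up to 8.57%. In Vis_1 and Vis_2, 3.96 and 4.15% of cells had a UMI, at greater median depth. Most joint cluster 6 cells thus had no Prph UMI while a minority had many. Among genes chosen after their values were seen, Bdnf, a neurotrophin, had 49.6, 27.7 and 92.5 CPM in joint cluster 6 and 0, 7.02, 0 and 1.18 in joint cluster 3, with UMIs in 32.9 and 5.71% of cells. Prlr, the prolactin receptor, had 26.9, 38.2 and 28.3 CPM in joint cluster 6 and 0 UMIs in joint cluster 3, and Avp, the vasopressin precursor, had 91.9, 22.5 and 68.1 and 0, 0, 0 and 11.8 CPM. These 3 genes were each higher in joint cluster 6 in all 3 paired animals.

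**Figure D5:**
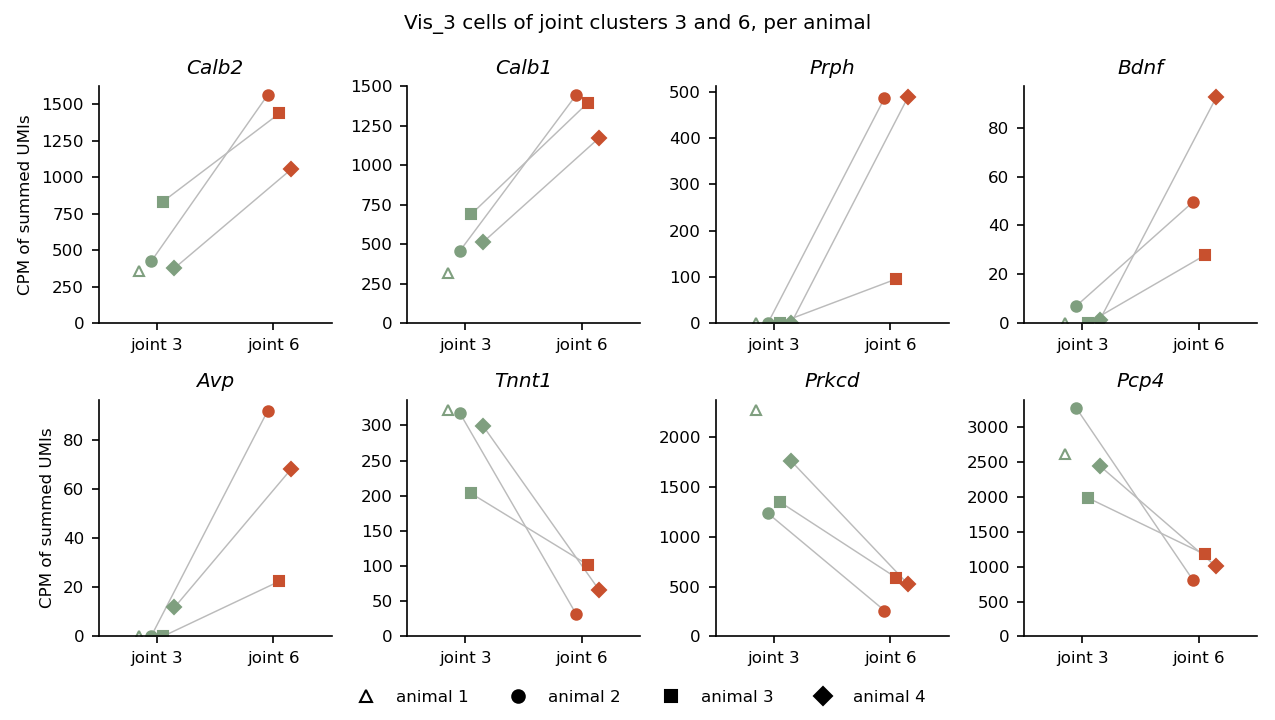
CPM of summed UMIs (linear axes from 0) of 8 genes in the Vis_3 cells of joint clusters 3 and 6; symbols are animals, lines join sums of the same animal, and animal 1 has a joint cluster 3 sum only. Calb2, Calb1, Prph, Bdnf and Avp are higher and Tnnt1, Prkcd and Pcp4 lower in joint cluster 6 in animals 2 to 4.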

How the data were processed

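Single thalamic neurons were sequenced on 26 plates, the deposited samples, as 3' libraries with UMIs. Per the submitters' processing notes, the build was mm10 and the tools were STAR 2.5.3, Picard 1.12 and cutadapt 1.16. Neither annotation nor counting rule is given in the sources used here. UMIs of overlapping or antisense genes and of near-identical copies may therefore be mixed. Raw counts, with no normalization, were deposited by the authors per gene (36589) and spike-in (90) for 1972 cells, and a cell table whose clusters, animals and joint clusters were used as given. In every cell, summed gene counts matched the total in the authors' cell table exactly. All 135 Vis_3 cells were used, no cell was filtered and no doublet caller was run, because cells were picked by hand. The 107 barcodes of Vis_3 cells recur on other plates, where they mark wells.

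Counts were summed per animal and cluster (at least 10 cells, 10 sums) and fitted in edgeR 4.0.16 (R 4.3.3), using TMM factors of 0.977 to 1.02, filterByExpr (12147 genes kept), a trended dispersion (common biological coefficient of variation 0.477) and the animal as block, with 4 residual degrees of freedom. The block was used because the clusters come from the same animals. No p-value is given for genes. Genes are counted at a fold of at least 2 with the same direction within every animal. The naming rule took, per contrast, the 15 highest and 15 lowest folds among counted genes averaging at least 20 CPM in the higher group, without unnamed gene models, and any member of a gene list, and not every gene it took is described here. Values of some listed genes are not reported here. Bdnf, Prlr and Avp were chosen after their values were seen. The members and lists were chosen with earlier results of these data known.

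Depth, genes at 20000 UMIs and spike-in share were compared with a two-sided exact permutation test within animals (scipy 1.17.1). Joint clusters 6 and 3 within Vis_3 were fitted likewise on sums of at least 5 cells. Shares have exact Clopper-Pearson 95% intervals, and intervals and limits for 0 (3 counts) cover counting error only. Scripts were tested on simulated data. Alternatives were DESeq2 1.42.0, other cell minimums, filters, folds and depths, leaving out each animal, no block, and, added after seeing the data, only the Vis_3 cells of joint cluster 6 and the thinned fit within Vis_3.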

Additional observations from a re-analysis of the deposited data

Results flagged for a closer look

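In 3 of the values compared over the 4 visual animals, 1 animal lay farther from the rest than Dixon's 95% limit, which chance exceeds in about 1 group in 20; 6 such groups were looked at. Animal 1 had the highest share of Vis_3 cells in joint cluster 3 (75% of its 8 cells) and the lowest in joint cluster 6 (12.5%); both values rest on the same 8 cells. Animal 3 had the highest median number of genes per Vis_3 cell at 20000 UMIs (3686, against 3485 to 3519 in the others). The causes were not tested.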

How the results depend on the processing

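The counts of genes depend on how many animals must share a direction and on depth. The sign of the fitted fold, looked at for named genes, turned for few. Direction within each animal was shared less often. Genes higher than both clusters fell from 430 to 159 when all 4 animals had to share it, on sums of at least 5 cells. Genes lower than both fell from 329 to 195. Against Vis_1, Vis_2 and their mean in turn, where 2502, 1296 and 2003 genes were counted, sums of at least 5 cells gave 1139 (564 higher, 575 lower), 756 (282 and 474) and 924 genes, and thinning each cell gave 1452, 730 and 1028 of 9099 genes. A fold of at least 1.5 gave 4063, 2361 and 3449 and a fold of at least 4 gave 1025, 454 and 724. Without a filter on low counts, 25843 genes were tested instead of 12147, and the counts were 3773 against Vis_1 and 3647 against the mean. With only the Vis_3 cells of joint cluster 6, an alternative added after seeing the data, 1989 genes were counted against Vis_2 (661 higher, 1328 lower) and, against Vis_1, 1384 were higher and 1701 lower. Leaving out 1 animal, which leaves fewer pairs to share a direction, gave 2837 to 4038, 1427 to 2402 and 2151 to 3226 genes, and without replicate 4 the count was highest against Vis_1 and the mean. DESeq2 gave counts within 1.5 times of those reported. No replicate block in the fit, with the direction still read within each animal, gave 2143, 1143 and 1611 genes.

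Directions turned for few named genes. With the joint cluster 6 cells alone, Nptxr had log2 folds of -1.06, -1.03 and -1.05 against Vis_1, Vis_2 and their mean, Pcdh15 had -0.60 against Vis_1, Cntn3 had -0.24 against Vis_2 and Grik4 had -0.54 against the mean. Leaving out 1 animal gave Kcnip2 -0.0366 to 3.48 and Kcnk10 -0.44 to 2.12 against the mean, both lowest without replicate 2, and with sums of at least 5 cells Slc4a4 had 0.064. The cause was not tested. Depth limits the low genes: in the 8 cells of animal 1, levels up to 7.18 CPM could be missed by counting error alone. A transcript held by few cells, such as Kcnip1, can be missed among 8 cells at higher levels too.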

Other observations

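A gene model without a name, 6330403K07Rik on chromosome 11, falls outside the rule for named genes but stood apart between the visual clusters. It had 208, 657, 708 and 535 CPM in Vis_3 of animals 1 to 4, 11.4, 32.6, 16.6 and 40.3 in Vis_2 and 9.37, 3.43, 1.28 and 3.43 in Vis_1, with UMIs in 79.3, 21.2 and 13.9% of cells. It was higher in all 4 animals without overlap. Within Vis_3 it had 879, 903 and 749 CPM in joint cluster 6 of animals 2 to 4 and 126, 267, 183 and 88.5 CPM in joint cluster 3 of animals 1 to 4. Among the 17 clusters its level was higher only in Aud_3 (1356 CPM).

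Of 83 cytosolic ribosomal protein genes, 79 had a log2 fold above 0 against the mean of Vis_1 and Vis_2, with a median of 0.32, and 1 reached the counted size. Of 80 nuclear genes of the respiratory chain, 66 had a fold below 0, with a median of -0.13, and 1 reached the counted size. With DESeq2 size factors 79 were above and 65 below 0, and with only the Vis_3 cells of joint cluster 6 the numbers were 81 of 83 above 0 and 32 of 79 below 0, so that the respiratory median turned to 0.05. Of 8 mitochondrial mRNAs, 6 had a fold below 0 (median -0.10) and 0 reached the counted size. The median over all genes was 0.03.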
